A study of Mus musculus with 16 samples.

Results

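The 40 genes described here encode the extracellular matrix of meningeal fibroblasts, the basement membrane proteins beside it, and a few enzymes, transporters and secreted factors for which fibroblasts of the leptomeninges are known. They were chosen by name, with earlier results of these data known. Each gene is represented by 1 probe set, the brightest on average over the 16 arrays among those annotated with that gene symbol alone. Such a probe set exists for 39 of the 40 genes, and Fbn1 was not analysed here. A probe set counted as measured where its log2 value was over 4 on at least 4 arrays, which 34 of the 39 met. The other 5, Col1a1, Col12a1, Col18a1, Mmp2 and Timp1, lay below that filter and were not tested. The whole platform holds 18193 genes with a probe set of this kind, and 11464 of them were measured.

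Hippocampal RNA of 16 individual male mice, all 12 months old, was hybridised to Affymetrix expression arrays, 1 mouse per array and 4 mice per group. The AbPP antisense group are SAMP8 mice, a senescence-accelerated line with memory deficits at 12 months, that received intravenously an oligonucleotide directed at the amyloid beta precursor protein (AβPP). The Random antisense group are SAMP8 mice that received a random oligonucleotide by the same route, and the SAMP8 group were left untreated. The Control group are untreated mice from a 50% backcross of SAMP8 with CD-1, which had no memory deficits and carry SAMP8 alleles as well. Mice were also tested in a foot shock maze and an object recognition task. Dose, sequence and duration of the oligonucleotides are not given in the sources used here. The treatment field of Random antisense 1 reads as untreated, against its title, source and description, which were followed.

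The brain is wrapped in the meninges, whose inner layers, the pia and arachnoid, hold fibroblasts that also follow larger vessels into the tissue. These cells lay down fibrillar collagens, small leucine-rich proteoglycans that decorate the collagen fibrils, and glycoproteins such as fibronectin, while collagen IV, laminins and nidogen form the basement membranes of the pial surface and of vessels. Leptomeningeal fibroblasts are also known for making retinoic acid through Aldh1a2 and for releasing Igf2. Several of the genes are not restricted to fibroblasts: Sparc is made by astrocytes, and Vcan by oligodendrocyte precursors.

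AbPP antisense 4 and Control 4 stood apart from the other arrays. Their median correlation with the remaining arrays over the tested probe sets was 0.905 and 0.922, against 0.958 to 0.989 for the others. The 3' minus 5' signal difference of the beta-actin control transcript, a measure of RNA integrity, was 3.89 on AbPP antisense 4 and 0.84 to 1.60 elsewhere. Of 11 hippocampal neuron markers, 10 had a probe set and passed the filter, which asks for 4 arrays only. They were low on some arrays: 6 of the 10 lay over 1 log2 unit below their own median on AbPP antisense 2 (median deviation -1.08, 7 of them the lowest of the 16 arrays), 5 on AbPP antisense 4 (-0.97) and 3 on Control 4 (-0.66). The log2 of their summed level ranged over 11.75 to 13.40 after AbPP antisense, 12.76 to 13.12 after Random antisense, 12.78 to 12.99 in SAMP8 and 12.44 to 13.03 in Control. The labels name no batch, and the number of arrays limits the precision of every value. Values below are the deposited log2 values, in which 1 unit is a doubling of signal, and levels of different probe sets are not comparable as amounts of RNA.

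None of the 34 measured genes passed the test in any of the 4 comparisons, so "higher" and "lower" below describe values and not calls. The lowest differences after AbPP antisense were those of Igf2 and Fbln1, by about 1 log2 unit against both other SAMP8 groups. Vcan was the gene whose Random antisense arrays all lay below both the AbPP antisense and the SAMP8 arrays. The widest feature of the set was its spread: single AbPP antisense arrays and Control 4 departed from the rest by up to several log2 units. In whole hippocampus, fewer cells of a type and less RNA per cell cannot be told apart.

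Against Random antisense, AbPP antisense gave lower values for 22 of the 34 genes and higher values for 12, with a median difference of -0.11 log2 against 0.01 over all 23905 probe sets tested. In limma 0 genes passed an adjusted p of 0.05, where 0.0837% of all probe sets passed, and the lowest adjusted p was 0.215. At an unadjusted p under 0.05 there were 4 genes, or 11.8%, close to the 12.3% of all probe sets. The groups did not overlap for 2 genes, Vcan above and Col3a1 below, or 5.9%, against 7.58% of all probe sets. Lower values made up 64.7% of the genes and 49% of all probe sets, a count read here without a test.

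The comparison of AbPP antisense with untreated SAMP8 uses the same AbPP antisense arrays. Here 20 genes lay lower and 14 higher (58.8% lower, against 49.3% of all probe sets), with a median of -0.15 log2 against 0.004 over all probe sets. Again 0 genes passed in limma, beside 0.289% of all probe sets, and the lowest adjusted p was 0.124. An unadjusted p under 0.05 was reached by 4 genes, or 11.8%, against 14.7% of all probe sets. Only Col3a1 had groups that did not overlap, which is 2.9% of the genes against 7.96% of all probe sets.

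The comparison of Random antisense with untreated SAMP8 has the fewest genes at an unadjusted p under 0.05. There 21 genes lay higher and 13 lower (38.2% lower, against 52.9% of all probe sets), the median difference was 0.06 log2 against -0.01 over all probe sets, and every adjusted p was 1. In this comparison 0 genes and 0% of all probe sets passed in limma, and 1 gene had an unadjusted p under 0.05, which is 2.9% against 1.12%. SAMP8 against Control gave 16 higher and 18 lower (52.9% lower, against 41.6% of all probe sets) with a median of -0.006 log2 against 0.04. No gene passed (0 of 34, beside 0.36% of all probe sets), 2 genes or 5.9% had an unadjusted p under 0.05 against 4.38%, and every adjusted p was 0.999. Groups that did not overlap were seen for Vcan in the first of these comparisons (2.9% against 8.1% of all probe sets) and for Pcolce in the second (2.9% against 4.81%). A moderated F test over the 4 groups called 0 of the 34 genes, beside 0.849% of all probe sets, and its lowest adjusted p was 0.162 for Fbln1. It called 2 genes without AbPP antisense 3 (beside 4.03% of all probe sets), 1 without Control 4 and AbPP antisense 4 (beside 2.01%) and 1 with arrays weighted by their quality (beside 2.36%).

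The plot of all 34 genes by array shows where the variation lies.

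**Figure D1:**
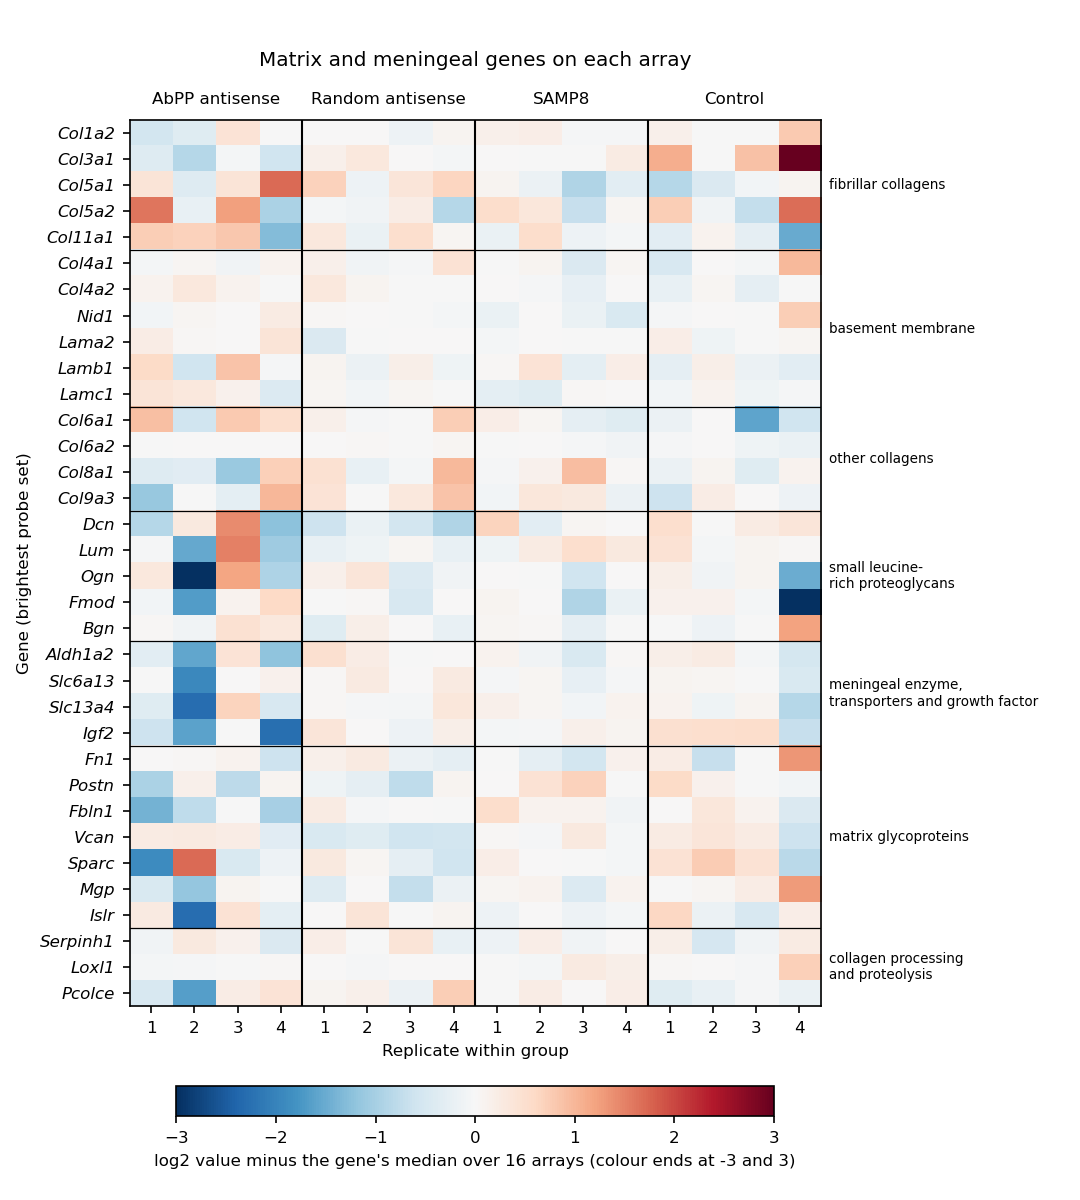
Colour gives each gene's log2 value minus its median over the 16 arrays, with genes in rows by role and arrays in columns by group. Ogn on AbPP antisense 2 (-3.41), Fmod on Control 4 (-3.90) and Col3a1 on Control 4 (4.62) go past the colour scale, while the Random antisense and SAMP8 columns stay within 1 log2 unit for every gene.

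The meningeal enzyme, transporters and growth factor (Aldh1a2, Slc6a13, Slc13a4 and Igf2) all lay lower after AbPP antisense. The median difference of these 4 was -0.77 log2 against Random antisense and -0.62 against SAMP8, and none passed the test. The 3 measured genes of collagen processing and proteolysis also lay lower, but mostly by little. Against Random antisense Loxl1 lay at -0.008, Serpinh1 at -0.11 and Pcolce at -0.58, or -0.056 in a second probe set of Pcolce. Against SAMP8 Serpinh1 lay at -0.015, or 0.076 in its second probe set.

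Igf2, an insulin-like growth factor secreted by leptomeningeal cells and the choroid plexus, read 8.24, 7.25, 8.85 and 6.61 on AbPP antisense arrays 1 to 4, 9.23, 8.88, 8.72 and 9.04 after Random antisense, 8.82, 8.84, 9.02 and 8.94 in SAMP8, and 9.35, 9.36, 9.39 and 8.18 in Control. AbPP antisense 1, 2 and 4 lay below all 8 arrays of the other SAMP8 groups, while AbPP antisense 3 lay inside their range. The difference was -1.23 log2 (SE 0.39, limma adjusted p = 0.244, exact permutation p = 0.0571) against Random antisense. Against SAMP8 it was -1.16 (SE 0.39, limma adjusted p = 0.197, exact permutation p = 0.0857).

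Aldh1a2, the enzyme that makes retinoic acid, read 6.58, 5.35, 7.30 and 5.70 after AbPP antisense, 7.37, 7.13, 6.88 and 6.92 after Random antisense, 6.997, 6.80, 6.44 and 6.94 in SAMP8, and 7.08, 7.14, 6.83 and 6.37 in Control. AbPP antisense 2 and 4 were the lowest of all arrays, and AbPP antisense 3 was the second highest. Against Random antisense the difference was -0.84 (SE 0.33, limma adjusted p = 0.337, exact permutation p = 0.143), and against SAMP8 it was -0.56 (SE 0.33, limma adjusted p = 0.446). Without AbPP antisense 2 these differences were smaller, at -0.55 and -0.27, and without AbPP antisense 3 they were larger, at -1.20 and -0.92.

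Slc6a13, a transporter of GABA and taurine, read 5.63, 3.71, 5.64 and 5.76 after AbPP antisense, against 5.69, 5.91, 5.64 and 5.91 after Random antisense. The SAMP8 arrays spanned 5.39 to 5.69 and the Control arrays 5.19 to 5.73. Only AbPP antisense 2 was low, and the rest of its group lay at 5.63 to 5.76. The difference was -0.60 (SE 0.34, limma adjusted p = 0.495), and without AbPP antisense 2 it was -0.11.

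Slc13a4, a sulfate transporter, had the same low array: AbPP antisense read 6.34, 4.41, 7.35 and 6.22, against 6.73, 6.66, 6.65 and 7.04 after Random antisense. The groups overlapped, with AbPP antisense 3 the highest of all 16 arrays and AbPP antisense 2 the lowest. The difference was -0.69 (SE 0.43, limma adjusted p = 0.545), or -0.13 without AbPP antisense 2 and -1.11 without AbPP antisense 3.

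The calls for these genes turned on AbPP antisense 3. When that array was left out, 3 genes passed against Random antisense: Fbln1 by -1.11 (limma adjusted p = 0.00973), Igf2 by -1.60 (adjusted p = 0.0227) and Aldh1a2 by -1.20 (adjusted p = 0.0268), where 3.75% of all probe sets passed as well. Against SAMP8, Fbln1 (-1.22, adjusted p = 0.00441), Igf2 (-1.53, adjusted p = 0.0214) and Lum (-1.10, adjusted p = 0.0331) then passed, beside 5.38% of all probe sets. AbPP antisense 2 moved other genes: without it the lower genes against Random antisense numbered 18 rather than 22.

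The plot of differences shows the same genes with and without these arrays.

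**Figure D2:**
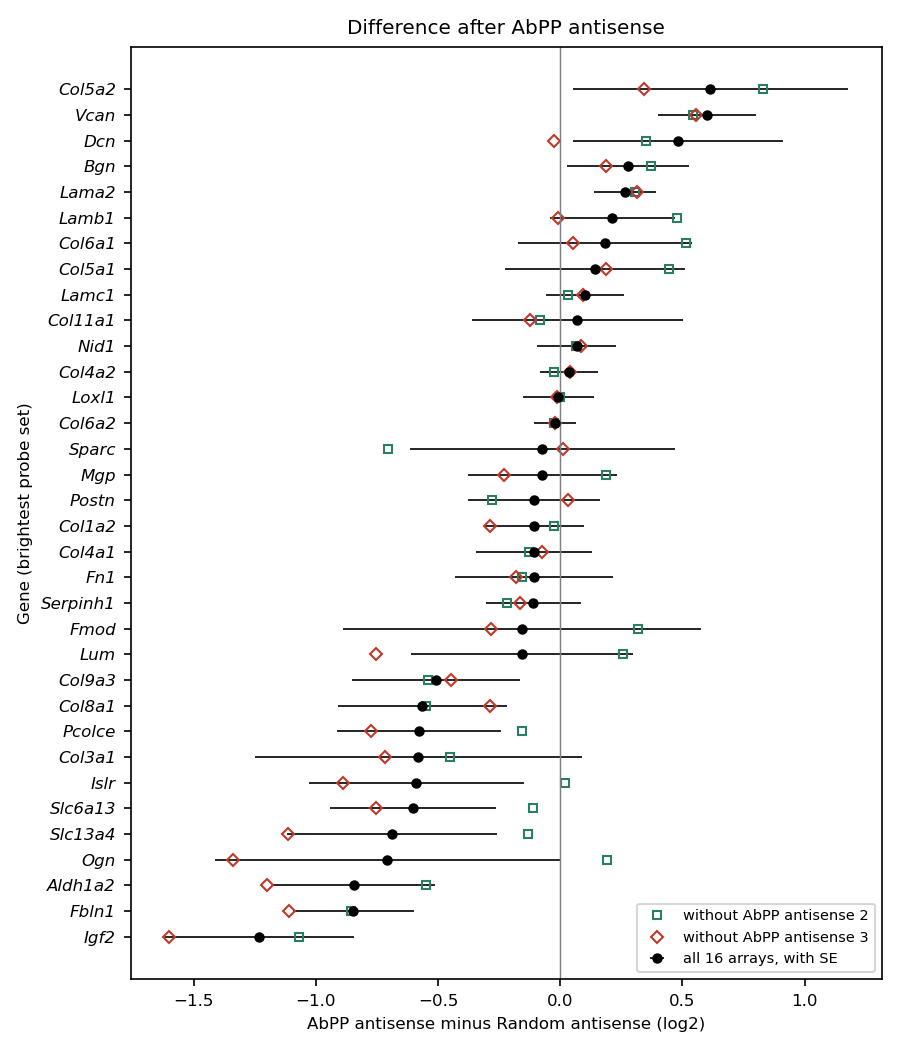
Points give the AbPP antisense minus Random antisense difference in log2 units for each gene with its SE, and open symbols give the difference after leaving out AbPP antisense 2 (squares) or 3 (diamonds). Igf2, Fbln1 and Aldh1a2 stay below 0 in all 3 settings, Ogn lies at 0.19 without AbPP antisense 2 and -1.34 without AbPP antisense 3, and Dcn lies at -0.03 without AbPP antisense 3.

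The small leucine-rich proteoglycans bind collagen fibrils and control their width. Their spread was wide: on AbPP antisense arrays 1 to 4 their median deviation from each gene's own median was -0.03, -1.53, 1.18 and -0.92.

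Ogn, osteoglycin, read 8.02, 4.29, 8.89 and 6.78 after AbPP antisense, 7.86, 8.07, 7.29 and 7.59 after Random antisense, 7.71, 7.70, 7.10 and 7.73 in SAMP8, and 7.89, 7.59, 7.78 and 6.22 in Control. AbPP antisense held both the highest and the lowest array of all 16. The difference was -0.71 (SE 0.71, limma adjusted p = 0.726), and a second probe set of Ogn, which read 4.27 on AbPP antisense 2 and 8.86 on AbPP antisense 3, gave -1.54 (adjusted p = 0.45).

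Dcn, decorin, read 8.47, 9.61, 10.74 and 8.08 after AbPP antisense, 8.69, 9.11, 8.77 and 8.42 after Random antisense, 9.997, 9.01, 9.37 and 9.33 in SAMP8, and 9.82, 9.30, 9.57 and 9.67 in Control. The AbPP antisense arrays again spanned all the others. AbPP antisense minus Random antisense was 0.48 (SE 0.43, limma adjusted p = 0.69), and Random antisense minus SAMP8 was -0.68 (SE 0.43, limma adjusted p = 1), with 1 Random antisense array above the lowest SAMP8 array.

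Lum, lumican, the neighbour of Dcn on chromosome 10, read 5.56, 4.06, 7.09 and 4.51 after AbPP antisense, against 5.37 to 5.65 after Random antisense, 5.46 to 6.08 in SAMP8 and 5.52 to 6.02 in Control. Like Dcn it was highest on AbPP antisense 3, but on AbPP antisense 2 it was lowest where Dcn was the second highest of its group.

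Fmod, fibromodulin, read 8.54, 6.95, 8.75 and 9.23 after AbPP antisense, 8.16 to 8.67 after Random antisense, 7.72 to 8.71 in SAMP8, and 8.76, 8.77, 8.59 and 4.73 in Control. Control 4 was far below every other array, and 3 further probe sets of Fmod read lowest there too, at 4.52, 3.34 and 4.91. Bgn, biglycan, took the opposite course on that array, at 7.20 against 5.83 to 5.99 on Control 1 to 3. After AbPP antisense Bgn read 6.04, 5.89, 6.45 and 6.31, and after Random antisense 5.63, 6.17, 6.004 and 5.78, a difference of 0.28 (SE 0.25, limma adjusted p = 0.692) with overlapping groups. SAMP8 minus Control for Bgn was -0.31 (SE 0.25, limma adjusted p = 0.999) and 0.01 without Control 4. A second, dimmer probe set of Bgn gave 0.004 for AbPP antisense minus Random antisense and -0.09 for SAMP8 minus Control.

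**Figure D3:**
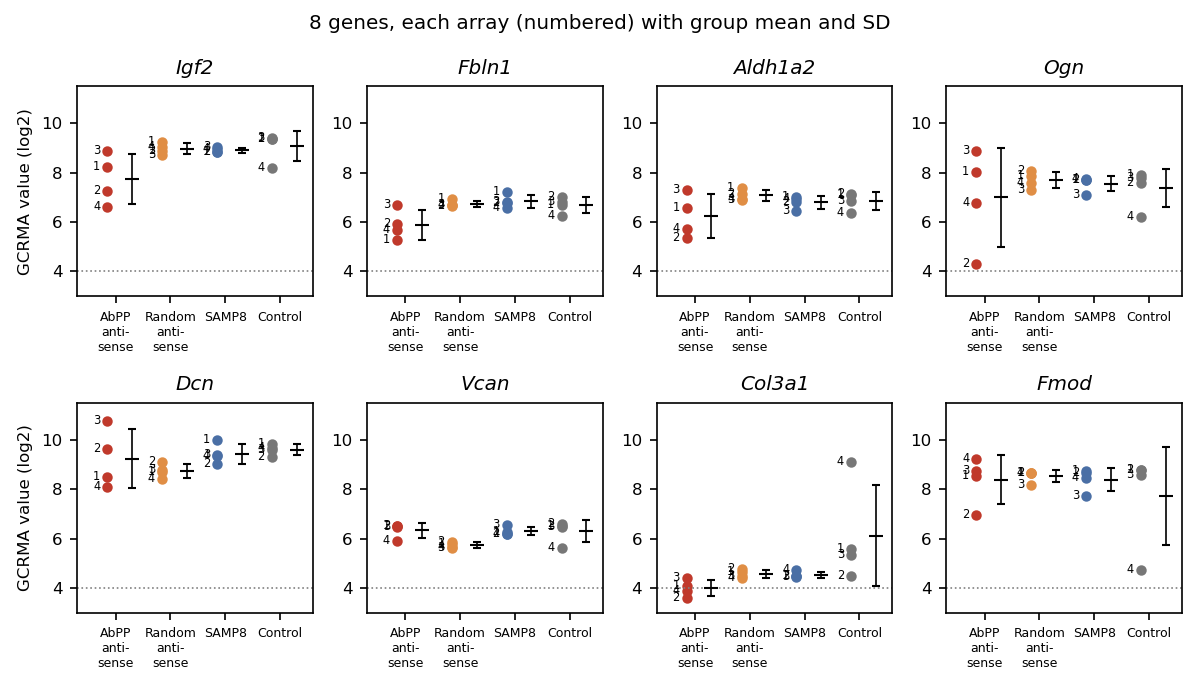
Each panel gives 1 gene's log2 value on every array (numbered points, by group) with the group mean and SD beside it, and the dotted line marks the filter at 4. Igf2, Fbln1 and Aldh1a2 show 2 or 3 low AbPP antisense arrays, Ogn and Dcn show AbPP antisense arrays on both sides of the rest, Vcan shows the low Random antisense arrays, and Col3a1 and Fmod show Control 4 at 9.09 and 4.73.

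Of the 7 matrix glycoproteins with a value, 6 lay lower and 1 higher after AbPP antisense than after Random antisense. Fbln1, fibulin 1, a binding partner of fibronectin and laminin, read 5.27, 5.91, 6.68 and 5.68 after AbPP antisense, 6.92, 6.64, 6.68 and 6.67 after Random antisense, 7.21, 6.79, 6.79 and 6.57 in SAMP8, and 6.68, 7.03, 6.79 and 6.25 in Control. AbPP antisense 1, 2 and 4 were the 3 lowest arrays of the study, and AbPP antisense 3 lay within the Random antisense values. The difference was -0.85 (SE 0.25, limma adjusted p = 0.215, exact permutation p = 0.0857) against Random antisense and -0.96 (SE 0.25, limma adjusted p = 0.124, exact permutation p = 0.0571) against SAMP8.

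Vcan, versican, a large proteoglycan that binds hyaluronan, read 6.49, 6.50, 6.46 and 5.88 after AbPP antisense, 5.77, 5.87, 5.63 and 5.67 after Random antisense, 6.28, 6.19, 6.53 and 6.18 in SAMP8, and 6.49, 6.60, 6.48 and 5.62 in Control. All 4 Random antisense arrays lay below all AbPP antisense and SAMP8 arrays. AbPP antisense minus Random antisense was 0.60 (SE 0.20, limma adjusted p = 0.269, exact permutation p = 0.0286, the smallest that 4 against 4 arrays allow). Random antisense minus SAMP8 was -0.56 (SE 0.20, limma adjusted p = 1, exact permutation p = 0.0286). Both use the same Random antisense arrays. Vcan passed in 2 alternative fits. Without Control 4 and AbPP antisense 4, AbPP antisense minus Random antisense was 0.75 (limma adjusted p = 0.00455), where 0.832% of all probe sets passed. With arrays weighted by their quality, Random antisense minus SAMP8 was -0.54 (limma adjusted p = 0.0181), where 0.0795% passed.

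Postn, periostin, read 4.23, 5.32, 4.39 and 5.27 after AbPP antisense, 5.05, 4.90, 4.42 and 5.26 after Random antisense, 5.18, 5.60, 5.86 and 5.16 in SAMP8, and 5.74, 5.30, 5.17 and 5.10 in Control. Both treated groups reached lower than SAMP8 but overlapped it. The difference from SAMP8 was -0.65 (SE 0.27, limma adjusted p = 0.285) after AbPP antisense and -0.54 (SE 0.27, limma adjusted p = 1) after Random antisense.

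Sparc, a collagen-binding glycoprotein with the brightest probe set of these genes, read 10.52, 14.10, 11.95 and 12.24 after AbPP antisense, against 11.80 to 12.70 after Random antisense, 12.35 to 12.61 in SAMP8 and 11.59 to 13.17 in Control. It was the only gene more than 1 log2 unit above its median on AbPP antisense 2, and the lowest array was AbPP antisense 1. Markers of astrocytes, a cell type that makes Sparc, were also high on AbPP antisense 2, with a median deviation of 0.57 and 6 of 10 at their highest of the 16 arrays, and their part in the Sparc value was not tested. A second probe set of Sparc followed, with 13.42 on AbPP antisense 2 and 11.26 on AbPP antisense 1. Islr, a leucine-rich repeat protein of fibroblasts, went the other way, with 7.70, 5.13, 7.85 and 7.13 after AbPP antisense, against 7.42 to 7.81 after Random antisense.

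Mgp, matrix Gla protein, an inhibitor of calcification, read 7.69, 6.98, 8.24 and 8.14 after AbPP antisense, 7.77, 8.16, 7.44 and 7.98 after Random antisense, 8.215, 8.26, 7.74 and 8.26 in SAMP8, and 8.13, 8.21, 8.38 and 9.43 in Control. It was lowest on AbPP antisense 2 and highest on Control 4. SAMP8 minus Control was -0.42 (SE 0.31, limma adjusted p = 0.999) and -0.12 without Control 4. Random antisense minus SAMP8 was -0.28 (SE 0.31, limma adjusted p = 1) and -0.15 without Random antisense 3. Fn1, fibronectin, was also highest on Control 4, at 8.69 against 6.70 to 7.60 on Control 1 to 3, and read 6.77 to 7.48 after AbPP antisense and 7.10 to 7.64 after Random antisense. A second, dimmer probe set of Fn1 did not follow. It read 3.67 on Control 4 against 3.77 to 4.07 on Control 1 to 3, and was highest on AbPP antisense 2, at 5.85.

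Fibrillar collagens give connective tissue its tensile strength. Of the 5 measured, 3 lay higher and 2 lower after AbPP antisense than after Random antisense.

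Col3a1, the chain of collagen III, read 4.10, 3.61, 4.41 and 3.87 after AbPP antisense, 4.63, 4.78, 4.48 and 4.42 after Random antisense, 4.49, 4.46, 4.46 and 4.71 in SAMP8, and 5.56, 4.47, 5.34 and 9.09 in Control. The 4 AbPP antisense arrays were the lowest 4 of the study, although 2 of them lay under the filter value of 4, and Control 4 was far above every other array. AbPP antisense minus Random antisense was -0.58 (SE 0.67, limma adjusted p = 0.767, exact permutation p = 0.0286), and AbPP antisense minus SAMP8 was -0.53 (SE 0.67, limma adjusted p = 0.744, exact permutation p = 0.0286). The SAMP8 arrays lay on average -1.59 log2 units from Control (SE 0.67, limma adjusted p = 0.999, exact permutation p = 0.0857), and -0.60 without Control 4.

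Col1a1, a chain of collagen I, stood below the filter at 2.88 to 3.44 on 15 arrays and at 4.97 on Control 4. Its partner Col1a2 read 4.82, 4.99, 5.77 and 5.35 after AbPP antisense, 5.20 to 5.43 after Random antisense, 5.33 to 5.56 in SAMP8, and 5.52, 5.34, 5.34 and 6.14 in Control. Col1a1, Col1a2 and Col3a1 thus shared their highest array, Control 4.

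Col5a1, a chain of collagen V that nucleates fibrils, read 5.43, 4.65, 5.43 and 6.75 after AbPP antisense, 5.73, 4.89, 5.40 and 5.69 after Random antisense, 5.14, 4.88, 4.14 and 4.72 in SAMP8, and 4.19, 4.62, 4.97 and 5.12 in Control. Both treated groups reached higher than SAMP8, with overlap. The difference from SAMP8 was 0.85 (SE 0.37, limma adjusted p = 0.305) after AbPP antisense and 0.71 (SE 0.37, limma adjusted p = 1) after Random antisense, and a second, dimmer probe set gave 0.42 in both. Without AbPP antisense 4 the difference after AbPP antisense was 0.45.

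Col11a1, a chain of collagen XI, read 7.96, 7.91, 8.04 and 5.93 after AbPP antisense, 7.01 to 7.72 after Random antisense, 7.01, 7.75, 7.08 and 7.15 in SAMP8, and 6.91, 7.34, 6.95 and 5.72 in Control. Its low arrays were AbPP antisense 4 and Control 4, those that stood apart over all probe sets. A second probe set of Col11a1 was low on AbPP antisense 4 as well, at 5.04, but not on Control 4. There it read 6.42, against 6.04 to 6.40 on the other Control arrays. SAMP8 minus Control was 0.52 (SE 0.43, limma adjusted p = 0.999) and 0.18 without Control 4. Col5a2 was near the filter, over 4 on 5 arrays, and spanned 2.72 to 5.26 within the AbPP antisense group.

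Basement membrane genes varied little between groups. Of the 7, Col18a1 was below the filter at 2.34 to 2.88, and the other 6 had a median deviation of 0.045 to 0.161 on the AbPP antisense arrays. All 6 lay higher after AbPP antisense than in SAMP8, by 0.08 to 0.27 log2, and 5 of 6 lay higher than after Random antisense. The direction of Col4a1 against SAMP8 depended on the probe set. Its second, dimmer probe set gave -0.14 against SAMP8 and -0.15 against Random antisense. A second probe set of Lamb1 gave 0.20 and 0.40. None of these differences passed.

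Nid1, nidogen, which links laminin to collagen IV, read 5.17, 5.32, 5.25 and 5.50 after AbPP antisense, 5.28, 5.26, 5.25 and 5.19 after Random antisense, 5.05, 5.26, 5.06 and 4.80 in SAMP8, and 5.22, 5.27, 5.23 and 5.98 in Control. SAMP8 1, 3 and 4 were the lowest arrays of the study and Control 4 the highest. The differences were 0.27 (SE 0.16, limma adjusted p = 0.452) for AbPP antisense minus SAMP8, 0.20 (SE 0.16, limma adjusted p = 1) for Random antisense minus SAMP8, and -0.39 (SE 0.16, limma adjusted p = 0.999) for SAMP8 minus Control. Without Control 4 the last was -0.20, and without SAMP8 4 Random antisense minus SAMP8 was 0.12.

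Lama2, the laminin alpha 2 chain, read 5.42, 5.23, 5.20 and 5.58 after AbPP antisense, against 4.77, 5.20, 5.20 and 5.20 after Random antisense. AbPP antisense 1, 2 and 4 lay above every Random antisense array and AbPP antisense 3 beside the upper ones, with a mean difference of 0.26 (SE 0.13, limma adjusted p = 0.416) that was 0.155 without Random antisense 1. Lamc1, a laminin gamma chain, read 5.56, 5.49, 5.30 and 4.75 after AbPP antisense, 5.22, 5.08, 5.23 and 5.15 after Random antisense, and 4.88, 4.80, 5.21 and 5.19 in SAMP8. Its groups overlapped, with a difference of 0.25 (SE 0.16, limma adjusted p = 0.479) for AbPP antisense minus SAMP8 and 0.15 (SE 0.16, limma adjusted p = 1) for Random antisense minus SAMP8. With 1 array left out, the first was 0.16 (without AbPP antisense 1) to 0.43 (without AbPP antisense 4), and the second was 0.08 without SAMP8 2.

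Col4a2, a collagen IV chain, read 7.71, 7.91, 7.72 and 7.59 after AbPP antisense, 7.92, 7.69, 7.60 and 7.59 after Random antisense, and 7.62, 7.57, 7.36 and 7.61 in SAMP8. The treated arrays reached higher than SAMP8 with overlap, by 0.19 (SE 0.12, limma adjusted p = 0.468) after AbPP antisense and 0.16 (SE 0.12, limma adjusted p = 1) after Random antisense, which was 0.09 without Random antisense 1. Its neighbour on chromosome 8, Col4a1, ranged over 8.93 to 9.13 after AbPP antisense, 8.92 to 9.45 after Random antisense, 8.60 to 9.10 in SAMP8 and 8.55 to 10.001 in Control, with Control 4 again highest. Lamb1 ranged over 6.86 to 8.31 after AbPP antisense, wider than the 7.13 to 7.85 of the other 12 arrays.

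The other collagens are Col6a1, Col6a2, Col8a1, Col9a3 and Col12a1. Of the 5, Col12a1 was below the filter at 3.29 to 3.75, and Col6a2 was at 3.80 to 4.07, beside the filter value on all arrays.

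Col6a1, a chain of collagen VI, read 7.53, 6.03, 7.42 and 7.14 after AbPP antisense, 6.61 to 7.38 after Random antisense, 6.83, 6.69, 6.36 and 6.26 in SAMP8, and 6.45, 6.64, 5.05 and 6.03 in Control. Control 3 and 4 were low, and SAMP8 minus Control was 0.49 (SE 0.36, limma adjusted p = 0.999), or 0.16 without Control 3. Col8a1, a chain of collagen VIII, a network collagen of vessels, read 5.30, 5.36, 4.57 and 6.41 after AbPP antisense, 5.46 to 6.65 after Random antisense, 5.65, 5.82, 6.62 and 5.74 in SAMP8, and 5.51, 5.77, 5.34 and 5.79 in Control. The SAMP8 and Control groups overlapped, with a difference of 0.35 (SE 0.35, limma adjusted p = 0.999) that was 0.13 without SAMP8 3. A second, dimmer probe set of Col8a1 gave -0.08 for the same comparison. Col9a3, a chain of collagen IX, ranged over 6.28 to 8.41 after AbPP antisense and 7.41 to 8.27 after Random antisense.

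Of the genes for collagen processing and proteolysis, Pcolce, which enhances removal of the procollagen C-propeptide, read 6.87, 5.70, 7.56 and 7.75 after AbPP antisense, 7.43, 7.50, 7.17 and 8.08 after Random antisense, 7.33, 7.57, 7.36 and 7.55 in SAMP8, and 6.99, 7.13, 7.31 and 7.14 in Control. All 4 SAMP8 arrays lay above all 4 Control arrays, by 0.31 (SE 0.34, limma adjusted p = 0.999, exact permutation p = 0.0286), and AbPP antisense 2 was the lowest of the study. A second, dimmer probe set gave 0.33 for SAMP8 minus Control, but its groups overlapped. On it SAMP8 read 4.60 to 4.88 and Control 3.86 to 4.62, with Control 4 the lowest of all arrays. Serpinh1, the collagen chaperone of the endoplasmic reticulum, ranged over 7.19 to 7.92 after AbPP antisense, 7.40 to 8.01 after Random antisense, 7.47 to 7.83 in SAMP8 and 7.12 to 7.87 in Control. Loxl1, which cross-links elastin, lay at 4.60 to 4.92 on 15 arrays and at 5.37 on Control 4.

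Timp1, an inhibitor of metalloproteinases, stood below the filter at 2.05 to 2.13 on 15 arrays and at 5.50 on Control 4. Mmp2, a gelatinase, lay at 3.28 to 3.87 on all arrays. Timp1 and Col1a1 were over the filter value on Control 4 alone, and the filter left both out of the test.

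The spread within groups differed between the groups. The SD over the 4 arrays of a group had a median over the 34 genes of 0.667 log2 after AbPP antisense, 0.232 after Random antisense, 0.224 in SAMP8 and 0.376 in Control. Over all probe sets tested the same medians were 0.386, 0.117, 0.126 and 0.293, lower than those of the genes in every group. An SD over 0.5 was found for 21 genes after AbPP antisense (61.8%, against 35.5% of all probe sets), 1 after Random antisense (2.9% against 1.2%), 1 in SAMP8 (2.9% against 1.72%) and 12 in Control (35.3% against 21.3%).

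**Figure D4:**
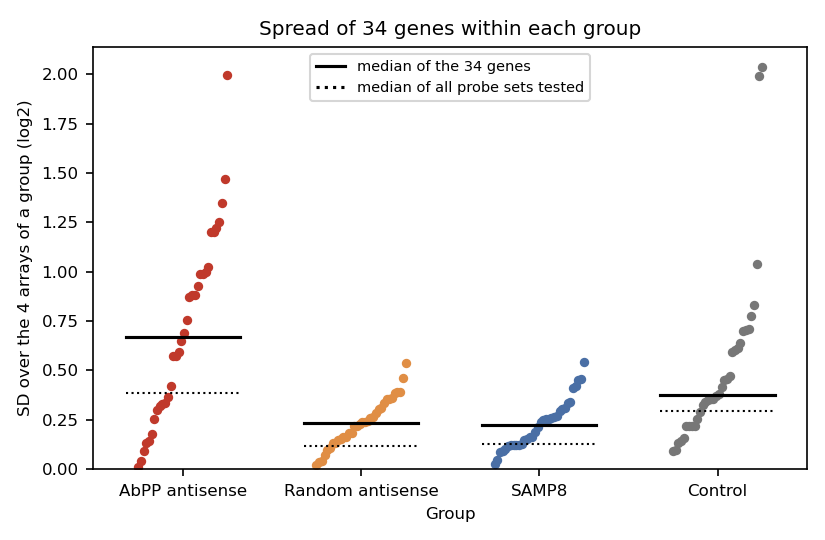
Each point is the SD of 1 gene over the 4 arrays of a group in log2 units, with the median of the 34 genes as a solid line and that of all probe sets tested as a dotted line. The AbPP antisense group has the highest median, 0.667 against 0.386 for all probe sets, and Random antisense and SAMP8 the lowest.

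In all, 10 genes lay more than 1 log2 unit below their own median on AbPP antisense 2, or 29.4% of the 34 against 5.2% of all probe sets: Ogn, Islr, Slc13a4, Slc6a13, Fmod, Pcolce, Igf2, Aldh1a2, Lum and Mgp. They come from the proteoglycans, the meningeal enzyme, transporters and growth factor, the glycoproteins and collagen processing, and none from the fibrillar collagens or the basement membrane. On AbPP antisense 3 it was 4 genes that lay over 1 unit above their median (11.8% against 0.7%), Lum, Dcn, Col5a2 and Ogn. AbPP antisense 4 had 6 genes over 1 unit below (17.6% against 14.4%) and AbPP antisense 1 had 3 (8.8% against 3.4%). Control 4 had 5 above (14.7% against 8.3%), Col3a1, Col5a2, Fn1, Mgp and Bgn, and 3 below (8.8% against 7.9%), Fmod, Col11a1 and Ogn. No gene lay that far from its median on any Random antisense or SAMP8 array. The hippocampal neuron markers were low on AbPP antisense 2 as well (60% over 1 unit below), while astrocyte markers (median deviation 0.57) and oligodendrocyte precursor markers (0.56, 5 of 7 at their highest of the 16 arrays) were high there.

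Markers of other cell types moved on the same arrays, and their part in these results was not tested. Of 14 choroid plexus markers, 12 were measured, and Aqp1 and Slc4a5 were below the filter. Their median deviation on AbPP antisense arrays 1 to 4 was -2.27, -2.08, -2.12 and -0.49, against 0.11, -0.44, 0.03 and 0.76 on the Random antisense arrays. The log2 of their summed level spanned 11.22 to 15.30 after AbPP antisense, 15.30 to 15.79 after Random antisense, 15.62 to 15.95 in SAMP8 and 15.36 to 15.68 in Control. All 12 lay lower after AbPP antisense in both comparisons. Against Random antisense 0 passed (lowest limma adjusted p = 0.0688, 11 at an unadjusted p under 0.05), and against SAMP8 5 fell: Clic6, Calml4, Kcnj13, Folr1 and Kl, with differences of -3.38 to -2.45 log2. On AbPP antisense arrays 1 to 4 Igf2 deviated from its own median by -0.63, -1.61, -0.02 and -2.255. Aldh1a2 deviated by -0.32, -1.55, 0.405 and -1.20 on these arrays. How these values relate to the choroid plexus list was not tested.

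Of 10 thalamus markers, all measured, the median deviation on AbPP antisense arrays 1 to 4 was -2.21, -0.26, -1.98 and 0.12, and their summed level spanned 11.79 to 14.17 after AbPP antisense, 13.39 to 13.88 after Random antisense, 14.02 to 14.10 in SAMP8 and 13.30 to 14.40 in Control. Of 12 pan-leukocyte genes, 6 were measured. Their median deviation was 5.45 on Control 4 and -0.55 to 0.90 elsewhere. Control 4, the array with high Col3a1 and Timp1, was thus also high for leukocyte genes. Of 7 blood markers, 4 were measured, with median deviations of 4.62 on AbPP antisense 2, 3.06 on AbPP antisense 4 and 4.28 on Control 4. The 4 did not move together. On Control 4 only 2 lay above their own median, S100a8 at 12.87 and S100a9 at 11.91, while Alas2 read 4.23 and Bpgm 9.77. On AbPP antisense 4 Bpgm was the lowest of all arrays, at 9.46. Of 19 endothelial and mural markers, 14 were measured, and their summed level spanned 12.39 to 12.64 after AbPP antisense, against 11.87 to 12.20 after Random antisense, 11.89 to 12.25 in SAMP8 and 11.91 to 12.15 in Control. All AbPP antisense arrays lay above all others in that sum, in which the brightest probe sets weigh most. The median deviation of these markers did not separate the arrays: it was 0.012 on AbPP antisense 3 and 0.085 on SAMP8 3. Of the 14 markers, 13 lay higher than after Random antisense, with a median of 0.34 and 0 passing (6 at an unadjusted p under 0.05, lowest limma adjusted p = 0.115). Of 12 microglia markers, 11 were measured, and their summed level spanned 12.91 to 13.07 after AbPP antisense, 12.38 to 12.67 after Random antisense, 12.57 to 12.68 in SAMP8 and 12.22 to 13.95 in Control, where Control 4 was the highest. All AbPP antisense arrays lay above all Random antisense and SAMP8 arrays in that sum, with 9 of the 11 markers higher in both comparisons and 0 passing (3 and 2 at an unadjusted p under 0.05, lowest limma adjusted p = 0.183 against Random antisense and 0.166 against SAMP8). The mean of their log2 values did not separate the arrays: it was 8.27 on AbPP antisense 4 and 8.55 on Random antisense 2. On AbPP antisense 4, 2 of the 11 lay over 1 log2 unit below their own median.

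**Figure D5:**
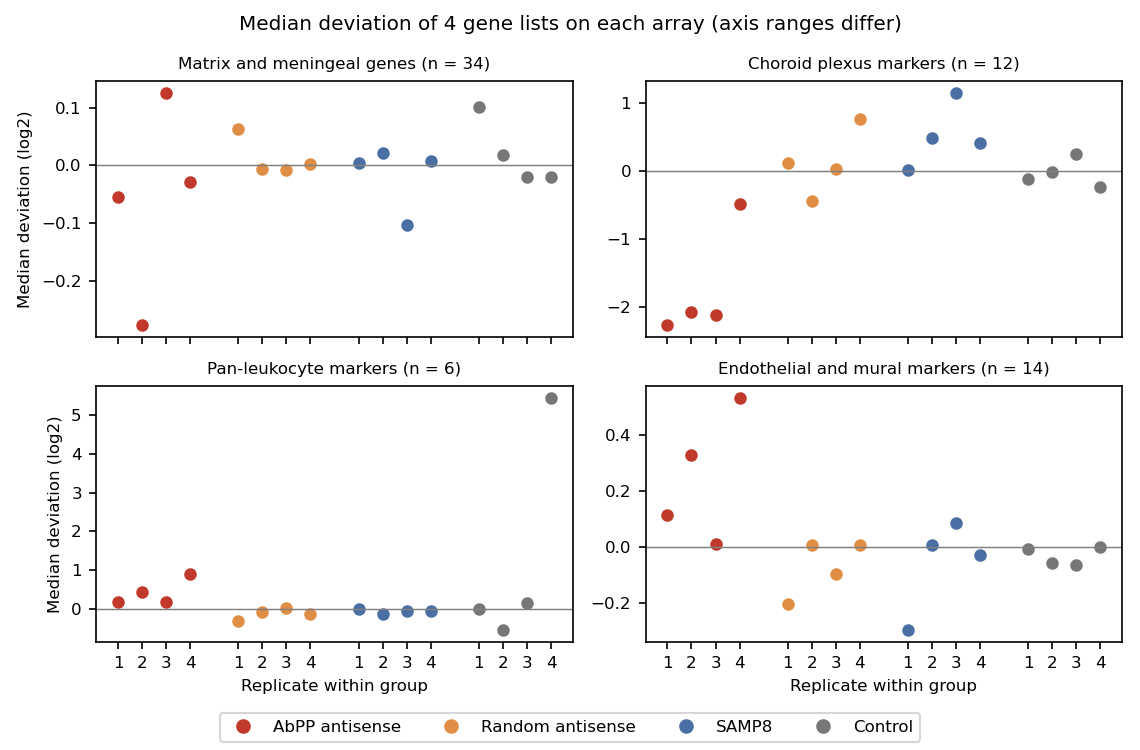
Each point is the median deviation, in log2 units, of a gene list from each gene's own median over the 16 arrays, with arrays numbered within groups and an axis range for each panel. The 34 genes reach -0.28 on AbPP antisense 2, choroid plexus markers lie near -2 on AbPP antisense 1 to 3, and pan-leukocyte markers reach 5.45 on Control 4.

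Genes of the same pathways outside the 40 were counted in 5 lists written from general knowledge: collagen-modifying enzymes and chaperones, other matrix proteins, basement membrane partners, matrix proteases with their inhibitors, and further meningeal fibroblast and arachnoid genes. Of these, 80 were measured, and 0 passed in limma in any of the 4 comparisons. Against Random antisense, 5 higher and 4 lower reached an unadjusted p under 0.05 after AbPP antisense, with a median difference of 0.03 over the 80. Against SAMP8 it was 4 higher and 5 lower, with a median of 0.04. Random antisense against SAMP8 gave 0, and SAMP8 against Control gave 1. Of all probe sets, 12.3%, 14.7%, 1.12% and 4.38% reached that p in these 4 comparisons, in the same order.

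Of the meningeal genes in these lists, 26 of 36 were measured, with 10 higher and 16 lower after AbPP antisense than after Random antisense and a median of -0.03. On AbPP antisense 2 their median deviation was -0.30 and 2 lay over 1 unit below their own median (7.7%, against 5.2% of all probe sets). They were Igfbp4, at 8.17 against 9.72 to 10.52 on the other 15 arrays, and Igfbp6, at 7.07 against 7.79 to 9.82. The difference with the lowest adjusted p among the meningeal genes was that of Zic1, a transcription factor of the meninges and also of the thalamus list, at -1.84 (SE 0.45, limma adjusted p = 0.103) for AbPP antisense minus SAMP8. Zic1 was low on AbPP antisense 1 and 3, at 9.11 and 9.80. The thalamus markers, which include Zic1, were low on the same arrays, and their part in the Zic1 value was not tested. Of 18 collagen-modifying enzymes, 14 lay higher after AbPP antisense than after Random antisense with a median of 0.05, and of 20 other matrix proteins 13 lay higher with a median of 0.12. Col23a1, a membrane-spanning collagen, had the lowest adjusted p of those, at 0.72 (SE 0.18, limma adjusted p = 0.133).

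Promoter sequence was available for 28 of the 39 genes with a probe set, from RefSeq on GRCm38.p6. The 250 bases before the start are shown for 4 genes described above. Ogn and Aldh1a2 were among the low genes of AbPP antisense 2, and Col3a1 and Timp1 were among the genes highest on Control 4. The windows lie at chr13:49607765-49608014 for Ogn, chr9:71215539-71215788 for Aldh1a2, chr1:45311288-45311537 for Col3a1 and chrX:20869916-20870165 for Timp1, all on the plus strand. Capitals mark matches, on either strand, to 4 short motifs: the TATA element TATAAA, the CCAAT box, the GC box GGGCGG and the AP-1 element TGAGTCA.
Ogn: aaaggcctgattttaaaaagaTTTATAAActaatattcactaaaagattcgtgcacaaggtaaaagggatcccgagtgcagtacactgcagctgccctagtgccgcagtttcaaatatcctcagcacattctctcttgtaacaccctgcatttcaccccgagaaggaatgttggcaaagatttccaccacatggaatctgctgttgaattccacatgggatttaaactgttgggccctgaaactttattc
Aldh1a2: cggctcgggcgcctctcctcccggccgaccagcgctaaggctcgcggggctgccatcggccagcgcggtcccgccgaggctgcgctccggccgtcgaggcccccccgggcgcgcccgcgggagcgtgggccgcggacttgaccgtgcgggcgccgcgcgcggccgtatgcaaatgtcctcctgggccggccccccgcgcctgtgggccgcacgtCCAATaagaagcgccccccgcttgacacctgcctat
Col3a1: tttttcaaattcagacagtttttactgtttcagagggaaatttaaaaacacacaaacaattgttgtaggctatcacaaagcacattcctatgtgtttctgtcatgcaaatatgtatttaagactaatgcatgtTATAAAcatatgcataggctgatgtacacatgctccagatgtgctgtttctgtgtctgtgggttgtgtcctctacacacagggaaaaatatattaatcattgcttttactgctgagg
Timp1: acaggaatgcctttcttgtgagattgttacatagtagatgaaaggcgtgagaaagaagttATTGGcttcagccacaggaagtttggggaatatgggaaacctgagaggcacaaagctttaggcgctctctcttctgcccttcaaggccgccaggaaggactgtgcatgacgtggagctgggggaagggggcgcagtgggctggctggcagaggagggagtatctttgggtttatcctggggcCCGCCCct
The Ogn window holds the TATA element on both strands in overlapping letters, and the Col3a1 window holds it once. The Aldh1a2 window holds 1 CCAAT box, and the Timp1 window holds 1 CCAAT box and 1 GC box, both on the minus strand. The low pair of AbPP antisense 2 therefore shared none of these motifs, and neither did the high pair of Control 4. Of 32851 windows of this length over all genes, the TATA element was held by 12.4%, the CCAAT box by 33.8%, the GC box by 32.7% and the AP-1 element by 4.5%. The genes with promoter sequence had 37 windows, as some have several starts. Of these, the TATA element was held by 8.1%, the CCAAT box by 35.1%, the GC box by 54.1% and the AP-1 element by 2.7%. These are matches of letters, and the arrays hold no measure of binding.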

How the data were processed

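The values are log2 values, 1 per probe set and array, that the authors made with GCRMA (background correction and normalization across arrays), per the submitters' processing notes. Its version and settings are not given in the sources used here. Biotinylated cRNA was prepared from 4 µg of total RNA of 1 hippocampus per array, as the labels' protocols state. Scanned intensities were not used. Of 45101 probe sets, 64 were array controls, and of the other 45037, 34945 have 1 gene symbol in GEO's platform annotation, 932 several and 9160 none. Through Entrez identifiers, 39 of 39 symbols were unchanged.

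All 23905 probe sets over 4 log2 on at least 4 of the 16 arrays were fitted in limma 3.58.1 (R 4.3.3) as a one-way layout of 4 groups (residual degrees of freedom 12). P-values were adjusted over all of them per comparison (Benjamini-Hochberg), and a gene passed where the adjusted value lay under 0.05. Exact permutation tests were two-sided over the 70 assignments of 8 arrays and were not adjusted for their number. The mice are separate animals. Values on every array are given per comparison for the 4 genes of smallest p in each direction, and others were named after their values were seen. The genes, lists and tests were chosen with earlier results of these data known. The scripts were tested on simulated data. Alternatives covered the filter, the variance prior, array weights, scaling, the replicate block, the probe set rule, the label of Random antisense 1 and each array left out. Python 3.11.15 and matplotlib 3.10.9 drew the figures.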

Additional observations from a re-analysis of the deposited data

Results flagged for a closer look

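Within each group of 4 arrays, the highest or lowest array of a gene was set against the range of its group, and 16 of 136 such groups had an array whose gap to the nearest other exceeded Dixon's critical value. The critical value is set so that about 5% of groups of normally distributed values exceed it. The share over all probe sets was not computed, so the 16 are not read as a trait of these genes. Control 4 was that array for 6 genes and AbPP antisense 4 for 3, and both stood apart over all probe sets.

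On Control 4, Fmod read 4.73 against 8.59 to 8.77 on the other Control arrays, Bgn 7.20 against 5.83 to 5.99, Igf2 8.18 against 9.35 to 9.39, Nid1 5.98 against 5.22 to 5.27, Vcan 5.62 against 6.48 to 6.60, and Loxl1 5.37 against 4.63 to 4.69. The pan-leukocyte genes were high on the same array, and their part in these values was not tested. On AbPP antisense 4, Col11a1 read 5.93 against 7.91 to 8.04 on the rest of its group, Fn1 6.77 against 7.39 to 7.48, and Vcan 5.88 against 6.46 to 6.50. The RNA integrity measure was extreme on that array, and its part was not tested. On AbPP antisense 2, Slc6a13 read 3.71 against 5.63 to 5.76.

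On Random antisense 1, Fbln1 read 6.92 against 6.64 to 6.68 and Lama2 4.77 against 5.20 on all others of the group. On Random antisense 3, Fmod read 8.16 against 8.63 to 8.67. On SAMP8 3, Ogn read 7.10 against 7.70 to 7.73 and Mgp 7.74 against 8.215 to 8.26, and on SAMP8 4 Col3a1 read 4.71 against 4.46 to 4.49.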

How the results depend on the processing

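With 4 mice per group, differences of the size seen here could not be told from the spread between arrays, and genes near the filter carry little signal over background. Over 26 alternatives, 822 values of single genes kept their direction and side of the threshold, 7 passed it and 3 changed sign: Dcn in AbPP antisense minus Random antisense (-0.026 without AbPP antisense 3, up to 0.863 with another array left out), and Bgn in SAMP8 minus Control (0.01 without Control 4, down to -0.447 with another array left out, and 0.01 without Control 4 and AbPP antisense 4). Leaving out 1 array at a time, the count of genes passing ranged from 0 to 3 against Random antisense, 0 to 3 against SAMP8 and 0 to 2 in the F test, the highest each without AbPP antisense 3, and was 0 in the other comparisons. With array weights, 1 gene passed in Random antisense minus SAMP8 and 1 in the F test. Without Control 4 and AbPP antisense 4, 1 passed against Random antisense and 1 in the F test. The median of AbPP antisense minus SAMP8, -0.154, was 0.022 with array weights, -0.038 after a further quantile normalization, and -0.184 to 0 with 1 array left out (-0.024 without AbPP antisense 1, 0 without AbPP antisense 2). The median of AbPP antisense minus Random antisense was -0.144 to -0.025 with 1 array left out, and that of SAMP8 minus Control -0.033 to 0.037. Probe sets called with 1 array left out numbered 11 to 896 (20 with all) against Random antisense, 16 to 1286 (69) for AbPP antisense minus SAMP8, 54 to 115 (86) for SAMP8 minus Control and 117 to 963 (203) in the F test. Fitting only the 8 arrays compared gave 0, 5 and 37 for these comparisons in the same order, no filter gave 31 for AbPP antisense minus SAMP8, and array weights gave 35 against Random antisense, 295 for SAMP8 minus Control and 19 for Random antisense minus SAMP8. Counting Random antisense 1 as untreated gave 13 against Random antisense. Where no cause is named, the cause was not tested. The replicate numbers recur in all groups, but arrays of the same number did not deviate together (24 pairs, r of -0.275 to 0.236). With the number as a replicate block, 0 genes passed in any comparison, the median of AbPP antisense minus Random antisense was -0.106, and 17, 63 and 71 probe sets were called.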

Other observations

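Lgals1, which encodes galectin 1, an extracellular lectin, read 13.49 on Control 4 and 9.20 to 11.03 on the other arrays. Of the 26 meningeal fibroblast and arachnoid genes measured outside the 40, 5 lay over 1 log2 unit above and 3 over 1 unit below their own median on Control 4, or 19.2% and 11.5%, against 8.3% and 7.9% of all probe sets. Of the 20 other matrix proteins measured, 1 lay over 1 unit above and 3 below there, or 5% and 15% against the same shares of all probe sets. Ptprc, the common leukocyte surface phosphatase, read 12.50 on Control 4 and 5.07 to 6.90 on the other arrays. These are values of 1 mouse and have no replicate.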
